A study of Mus musculus with 2 samples.

Results

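The miR-322, miR-503, miR-542 and miR-450 cluster with miR-351 is a group of microRNA (miRNA) genes that lie next to each other on the mouse X chromosome. Its 10 mature miRNAs were chosen by name among the 1881 mouse miRNAs on the arrays, and the rule that picks them uses no measured value, although the cluster was chosen with earlier results of these data known. They were mmu-miR-322-5p, mmu-miR-322-3p, mmu-miR-503-5p, mmu-miR-503-3p, mmu-miR-351-5p, mmu-miR-542-3p, mmu-miR-542-5p, mmu-miR-450a-5p, mmu-miR-450b-5p and mmu-miR-450b-3p.

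The study asked whether exosomes of pancreatic cancer cells make skeletal muscle cells resistant to insulin, mainly through assays on cultured muscle cells that took them up. As part of this it compared the miRNAs of these exosomes with those of exosomes of duct cells, and only that comparison is used here. Exosomes are small vesicles that cells release into their medium. KPC-exosomes came from a murine pancreatic cancer line derived from the tumour of mice whose genotype includes Trp53LSL-R172H/+ and Pdx1-Cre, in which Cre recombinase under the pancreatic Pdx1 promoter switches on mutant Trp53. MPDC-exosomes, the control, came from a purchased murine pancreatic ductal epithelial line with no allele named. The KPC line was grown in RPMI-1640 with 20% fetal bovine serum and the MPDC line in DMEM with 10% serum, so line, genotype and medium cannot be told apart in the comparison. In both groups the supernatant was collected in medium with exosome-free serum, the vesicles were pelleted by differential ultracentrifugation, and 0.5 µg of RNA was labelled with Cy3. Each group was hybridised to 1 Agilent mouse miRNA array, and both arrays lay on 1 slide. There was no replicate of either group, so no p-value could be given, and precision is limited by having 1 array per group. The scanner errors below are those the scanner software gives for a single array, and they are not the spread of the spots. For bright probes they were close to a fixed share of the signal. On the KPC array the 2 miR-322-5p probes read 219.6 ± 22.0 and 376.6 ± 37.7, while the 15 spots of the first ran only from 716 to 812. For such probes a limit in scanner errors is therefore close to a fixed fold.

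A miRNA gene is transcribed into a long precursor from which a hairpin is cut, and each arm of the hairpin can give a mature miRNA (5p or 3p). The mature strand finds messenger RNAs mainly through its seed, bases 2 to 8 from the 5′ end, and lowers their translation and stability. The cluster is known from muscle, where miR-322 and miR-503 rise as myoblasts leave the cell cycle and differentiate, and miR-322 is the rodent counterpart of human miR-424. Its miR-15/16-type seed is known for cell cycle targets such as cyclins and Cdc25a. miR-351 carries the seed of the miR-125 family, and miR-542-3p is known for targeting survivin, an inhibitor of apoptosis.

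The mature sequences are shown because the seed separates the cluster into groups and because each array probe pairs with a stretch of one of them that ends at its 3′ end. They were taken from RefSeq (GRCm38.p6), where all 10 were matched by name, and are written 5′ to 3′ with the seed in capitals.
mmu-miR-322-5p: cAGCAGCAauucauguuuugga
mmu-miR-503-5p: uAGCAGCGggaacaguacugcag
mmu-miR-351-5p: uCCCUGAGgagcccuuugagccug
mmu-miR-542-3p: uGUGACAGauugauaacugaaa
mmu-miR-542-5p: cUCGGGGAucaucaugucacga
mmu-miR-450a-5p: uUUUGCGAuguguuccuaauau
mmu-miR-450b-5p: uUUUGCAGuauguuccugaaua
mmu-miR-450b-3p: aUUGGGAAcauuuugcaugcau
mmu-miR-322-3p: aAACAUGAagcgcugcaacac
mmu-miR-503-3p: gAGUAUUGuuuccacugccugg

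No 2 members had the same 7-base seed. The seeds of miR-322-5p and miR-503-5p shared their first 6 bases, and those of miR-450a-5p and miR-450b-5p shared their first 5 bases. In RefSeq the hairpin genes stand on the minus strand of chromosome X in the order Mir322, Mir503, Mir351, Mir542, Mir450-2, Mir450-1 and Mir450b, with Phf6 and Hprt as neighbouring protein-coding genes on one side. The first 3 of them lie within the long non-coding RNA gene C430049B03Rik. miR-450a-5p is cut from both Mir450-1 and Mir450-2, and the arrays cannot tell these copies apart. The array design placed the probes of 6 members on mm9. Those of miR-322-5p lay at chrX:50407455-50407475, those of miR-503-5p at chrX:50407174-50407188 and those of miR-351-5p at chrX:50406456-50406470, while the probes of miR-450a-5p fell at both chrX:50401350-50401369 and chrX:50401485-50401504. The design gave the probes of the miR-542 and miR-450b arms as unmapped.

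The arrays differed strongly as a whole. Of 1881 miRNAs, 772 were detected in KPC-exosomes and 1031 in MPDC-exosomes, where a probe was called detected when its total signal exceeded 3 scanner errors. The median log2 difference (KPC-exosomes minus MPDC-exosomes) of the 726 miRNAs detected on both was -1.37 as scanned and 0.53 after quantile normalization, which returns the authors' deposited values. The 4 spike-in RNAs differed by -0.31 to 0.38 as scanned and by 1.18 to 2.43 after normalization. Marker miRNAs were checked against the labels. All 5 epithelial markers (the miR-200 family) were detected on both arrays, with a summed signal of 98.8 in KPC-exosomes and 1669 in MPDC-exosomes. Of 4 pancreatic markers only miR-217-5p was detected, at 60.9 ± 3.42 in KPC-exosomes. The array labelled MPDC-exosomes stood apart from its label in 4 miRNAs of pluripotent cells, which summed to 147796 there and to 168 in KPC-exosomes, where miR-302a-3p and miR-302d-3p were not detected. The muscle list (3 miRNAs) summed to 17.7 and 42.0, and the blood cell list (3 miRNAs) to 236 and 317, on the KPC and MPDC arrays. The blood cell miRNAs went in opposite directions. On the KPC and MPDC arrays miR-142a-3p read 188 and 29.1, miR-223-3p 32.0 and 184, and miR-451a 16.4 and 104. The part of these differences in the results below was not tested. With 1 array for each label, no result could be recomputed without either of them.

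The cluster was present in both kinds of exosome, at nearly the same scanned signal. Of its 10 miRNAs, 7 were detected on both arrays (38.6% of all miRNAs were), 2 in KPC-exosomes only (2.45% of all) and 1 on neither. As scanned, 6 of the 7 differed by less than 2 scanner errors, where 11.8% of the 726 miRNAs detected on both arrays did, and miR-542-5p was 1.97 times higher in KPC-exosomes. After quantile normalization the same 7 were all 2.99 to 27.1 times higher in KPC-exosomes. The median log2 difference of the 7 was 0.03 as scanned and 2.82 after normalization, against -1.37 and 0.53 for all miRNAs detected on both. In bulk vesicle RNA, fewer vesicles that carry a miRNA and fewer copies per vesicle cannot be told apart.

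**Figure D1:**
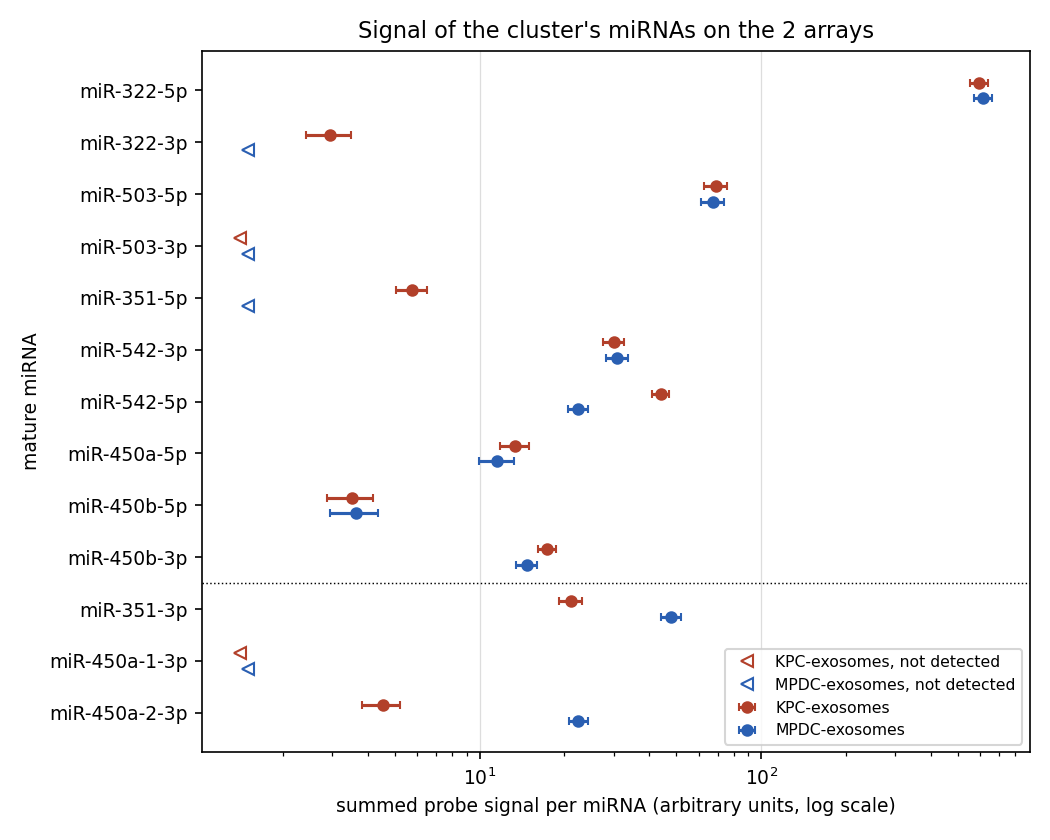
Summed probe signal (arbitrary units, log scale) of the 10 miRNAs of the cluster and, below the dotted line, of 3 other arms of the same hairpins, in KPC-exosomes (red) and MPDC-exosomes (blue), 1 array each; bars are ± 1 scanner error and open triangles stand at the lowest detected signal of an array where the miRNA was not detected. Of the 7 miRNAs of the cluster detected on both arrays, the error bars overlap for 5, just miss each other for miR-450b-3p and are well apart for miR-542-5p.

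Signals below are sums over the detected probes of a miRNA in arbitrary units, each with its scanner error, and they are compared between arrays and not between miRNAs. The first group holds the miR-15/16-type seeds. mmu-miR-322-5p read 596.2 ± 43.6 in KPC-exosomes and 615.2 ± 46.1 in MPDC-exosomes. Its arrays were alike within the error, with a log2 difference of -0.05 ± 0.15 as scanned. Its 2 probes differed in opposite directions, by 0.13 ± 0.20 for the probe of 21 bases and by -0.14 ± 0.20 for the probe of 22 bases. After normalization the log2 difference was 1.58, a fold of 2.99. KPC-exosomes gave 69.1 ± 6.26 for mmu-miR-503-5p and MPDC-exosomes 67.5 ± 6.14, which differ by 0.03 ± 0.19 on the log2 scale as scanned. Neither of its 2 probes differed by more than 0.06 on the log2 scale, and their spots overlapped between the arrays. The normalized log2 difference of miR-503-5p was 1.78, a fold of 3.44.

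The hairpin Mir542 gave different values for its arms. mmu-miR-542-3p read 29.9 ± 2.53 (KPC-exosomes) and 30.9 ± 2.65 (MPDC-exosomes), a log2 difference of -0.05 ± 0.17 as scanned and 1.71 after normalization. mmu-miR-542-5p read 43.97 ± 3.15 in KPC-exosomes, against 22.3 ± 1.82 in the control. This was the only member of the 7 above 2 scanner errors before normalization, at 0.98 ± 0.16, where 14.7% of the 726 miRNAs detected on both arrays were higher by that margin. After normalization the log2 difference of miR-542-5p was 2.82, a fold of 7.06. The difference of the 5p arm exceeded that of the 3p arm by 1.02 ± 0.23 as scanned, which is 4.37 scanner errors, and by 1.11 after normalization.

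The probes of miR-542-5p are nested, and the part of the miRNA that each pairs with is given in capitals, since the difference was read from these stretches.
17 bases: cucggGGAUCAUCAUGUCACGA
18 bases: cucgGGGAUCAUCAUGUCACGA
19 bases: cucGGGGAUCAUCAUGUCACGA
The probe of 18 bases read 13.6 ± 1.43 and 6.89 ± 0.84 on the KPC and MPDC arrays, a log2 difference of 0.98 ± 0.23, and the probe of 19 bases read 26.9 ± 2.74 and 15.5 ± 1.62, a difference of 0.80 ± 0.21. On both probes the 7 spots of one array did not overlap with the 7 of the other. The spots of the longer probe ranged from 170.1 to 222 (median 210.2) in KPC-exosomes and from 98.5 to 133 (median 119) in MPDC-exosomes. The probe of 17 bases was detected in KPC-exosomes only, at 3.47 ± 0.61 against 1.04 ± 0.54. The fourth probe, of 16 bases, was detected on neither array. With all spots counted, the probes of 18 and 19 bases were the only 2 with separated spots among the 15 member probes that both arrays detected. The other 13 had overlapping spots. For the miR-322-5p probe of 22 bases and the miR-450b-3p probe of 19 bases, this overlap came only from spots that the scanner software marked as outliers. Without marked spots, that miR-322-5p probe ran from 1282 to 1382 in KPC-exosomes and from 1447 to 1565 in MPDC-exosomes.

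**Figure D2:**
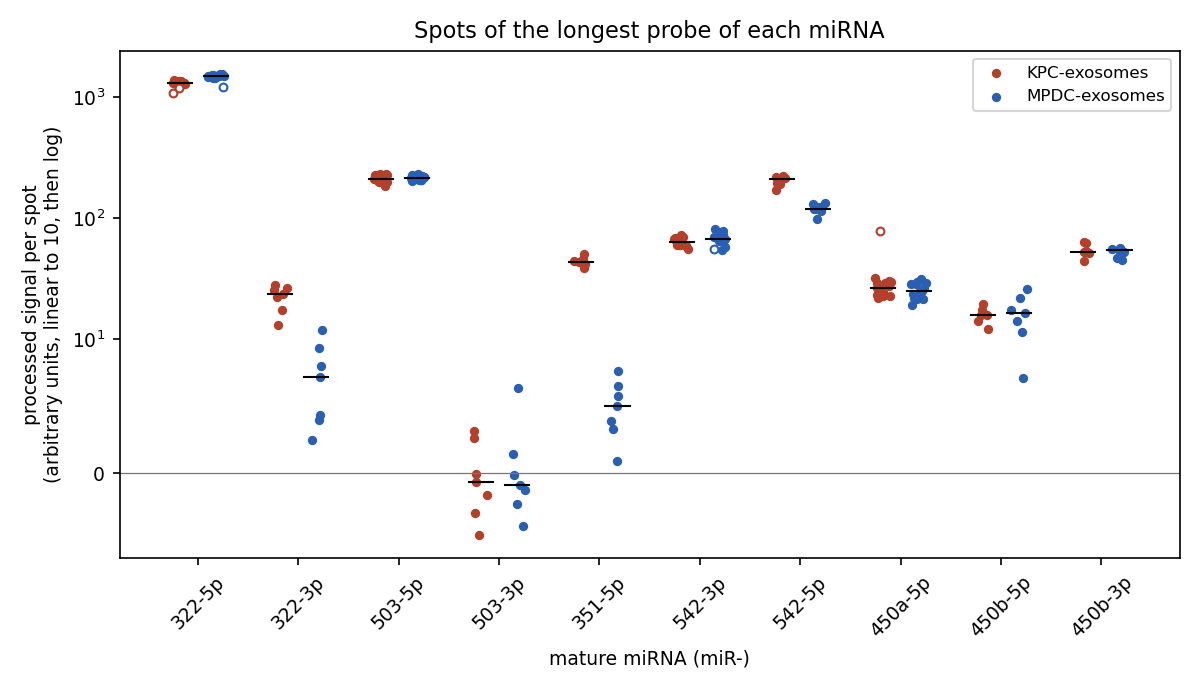
Processed signal of each spot (arbitrary units, linear up to 10 and logarithmic above) of the longest probe of each of the 10 miRNAs, in KPC-exosomes (red) and MPDC-exosomes (blue), with black bars at the medians and open circles for spots that the scanner software marked as outliers. With all spots counted, the arrays are apart for miR-542-5p, miR-351-5p and miR-322-3p and overlap for the other 7 miRNAs. For miR-322-5p the overlap comes only from spots marked as outliers, and its unmarked spots are lower in KPC-exosomes.

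The miR-450 hairpins gave dim but detected signals. mmu-miR-450a-5p read 13.4 ± 1.63 (KPC-exosomes) and 11.6 ± 1.64 (MPDC-exosomes), a log2 difference of 0.21 ± 0.27 as scanned. That of mmu-miR-450b-5p was 3.53 ± 0.66 and 3.65 ± 0.71, a difference of -0.05 ± 0.39, from 2 of its 4 probes on both arrays. That of mmu-miR-450b-3p was 17.4 ± 1.30 and 14.7 ± 1.23, a difference of 0.24 ± 0.16. None of these 3 reached 2 scanner errors, and their arrays overlapped at the level of spots on every probe detected on both. For the miR-450b-3p probe of 19 bases this held only through an MPDC spot that the scanner software marked as an outlier. The unmarked spots of that probe ran from 22.3 to 32.4 in KPC-exosomes and from 18.4 to 21.8 in MPDC-exosomes. Normalization moved these 3 miRNAs the furthest in the cluster, to log2 differences of 4.52 for miR-450a-5p, 3.68 for miR-450b-5p and 4.76 for miR-450b-3p, or folds of 22.9, 12.9 and 27.1. The study also picked miR-450b-3p for further work from these arrays, so its normalized value is no independent evidence of its direction. Separately from the arrays, the paper reports RT-qPCR of its top highly expressed miRNAs, and its list of these includes miR-450b-3p. It also put a mimic of miR-450b-3p into cultured muscle cells. From this it proposes that the miRNA may raise the transcription factor FoxO1 and lower the glucose transporter Glut4. Neither the RT-qPCR nor the mimic result of miR-450b-3p was examined here. The probe of miR-450b-3p with 21 bases shared a run of 16 bases with that of mmu-miR-450a-1-3p, which was itself detected on neither array. For the other 9 members the longest run shared with a probe of another miRNA was 8 to 11 bases. For miR-542-3p (11 bases) and miR-503-5p (9 bases, shared equally with other miRNAs) this was miR-101a-3p, which read 28.8 ± 2.44 (KPC-exosomes) and 579 ± 41.2 (MPDC-exosomes), and for miR-322-5p (10 bases) it was miR-302a-3p, which was not detected in KPC-exosomes and read 463 ± 41.2 in MPDC-exosomes.

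The remaining members were detected in KPC-exosomes only or not at all. In KPC-exosomes mmu-miR-351-5p read 5.76 ± 0.72, from 1 of 4 probes. On that probe, of 16 bases, the 7 spots ranged from 38.5 to 50.2 in KPC-exosomes and from 0.94 to 7.58 in MPDC-exosomes, where it was not detected at 0.61 ± 0.47. mmu-miR-322-3p read 2.95 ± 0.53 there, also from 1 of 4 probes, and the same probe read 0.87 ± 0.47 in MPDC-exosomes, where it was not detected. Its 7 spots ranged from 13.09 to 28.2 and from 2.48 to 11.99, so the arrays did not overlap for either miRNA. For these a bound is given, the signal in KPC-exosomes over the lowest signal of any miRNA detected in MPDC-exosomes. As scanned, miR-351-5p was at least 3.82-fold and miR-322-3p at least 1.96-fold higher in KPC-exosomes. No bound is given after normalization, since there the lowest MPDC signals are averaged with the floor set for undetected miRNAs. mmu-miR-503-3p was detected on neither array, with all 4 probes under 3 scanner errors. Its deposited normalized values differ by 0.71 on the log2 scale, which is the value of all 804 miRNAs detected on neither array and is set by the floor.

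By the study's rule (detected on at least 1 array and at least 2-fold in the normalized values), 9 of the 10 members were higher in KPC-exosomes and 0 were lower, where 18.0% of all 1881 miRNAs were higher and 24.5% lower. Without normalization 2 members were higher and 0 lower, against 6.38% and 38.9% of all. These 2 were miR-351-5p and miR-322-3p, with MPDC-exosomes at the floor of 0.1, and miR-322-3p passed only through that floor, since its bound was below 2-fold. Scaling by the spike-in RNAs also left 2 members higher, where 6.33% of all were, and background correction by normexp followed by quantile normalization left 3, where 8.19% of all were.

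Relative to the other miRNAs of the same arrays, the cluster lay above the median on both scales. Each of the 7 members detected on both arrays lay above the median of all, by 1.32 to 2.35 on the log2 scale as scanned. For 3 of them this went with their low signal. The 99 miRNAs with an MPDC signal up to 14.8 had medians of -0.10 as scanned and 4.02 normalized. Near these lay miR-450a-5p (0.21 and 4.52), miR-450b-5p (-0.05 and 3.68) and miR-450b-3p (0.24 and 4.76). The 627 brighter miRNAs had medians of -1.53 and 0.26, and the 4 members among them lay higher, at -0.05 to 0.98 and 1.58 to 2.82. Of the 726 miRNAs, 76 had a larger scanned difference than miR-542-5p, and 123 to 141 had a larger one than the other 6. The members' median exceeded that of all by 1.41 as scanned or under any constant scaling, by 2.29 after quantile normalization, and by 0.61 when quantile normalization followed normexp background correction.

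**Figure D3:**
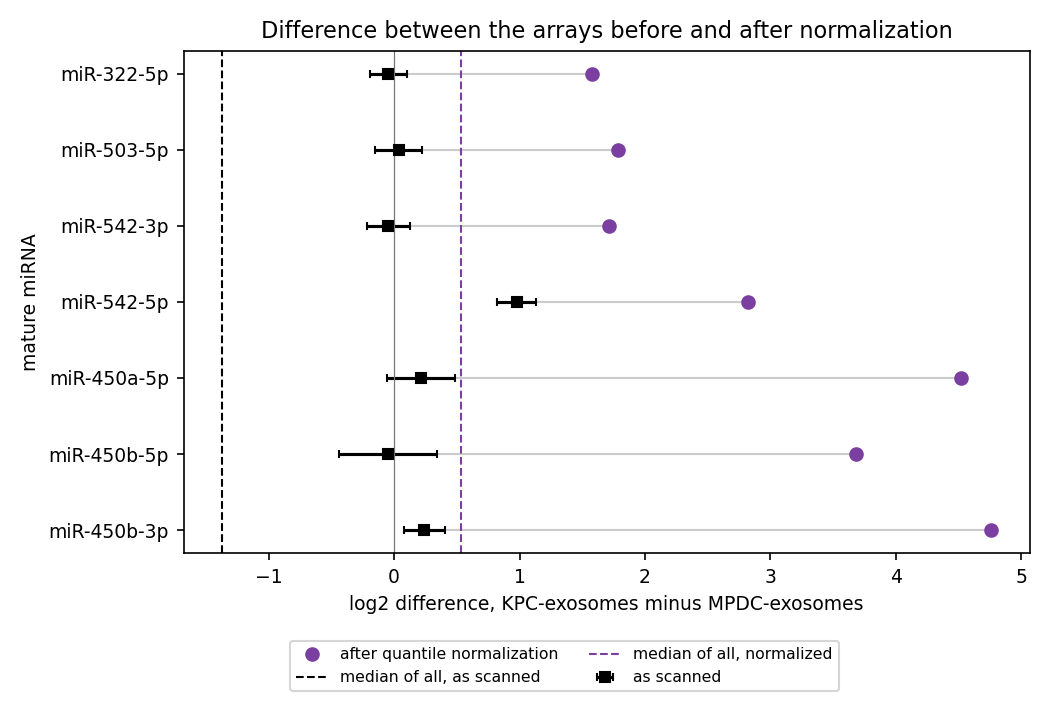
Log2 difference between the arrays (KPC-exosomes minus MPDC-exosomes) of the 7 miRNAs detected on both, as scanned (squares, ± 1 scanner error of the difference) and after quantile normalization (circles), with the medians of all 726 miRNAs as dashed lines (-1.37 as scanned, 0.53 normalized). The scanned values lie between -0.05 and 0.98 and the normalized ones between 1.58 and 4.76.

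How far normalization moved a member depended on its rank. Quantile normalization gives both arrays the same set of values by averaging the signals of equal rank, and 1120 features of the KPC array were undetected and at the floor. MPDC signals up to 14.8 therefore shared their rank with that floor. The 3 members there (miR-450a-5p, miR-450b-5p and, just inside at 14.7, miR-450b-3p) moved by 3.73 to 4.52 on the log2 scale, and the 4 brighter ones (miR-322-5p, miR-503-5p, miR-542-3p and miR-542-5p) by 1.63 to 1.84. The same held over all miRNAs detected on both arrays, with the members counted among them. The 99 miRNAs detected on both arrays with an MPDC signal in the lower range moved by a median of 4.30, and all 99 came out at least 2-fold higher, while the 627 above it moved by a median of 1.79 and 30.9% of them came out higher. With a floor of 1 in place of 0.1 the median of the 7 members was 2.02.

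**Figure D4:**
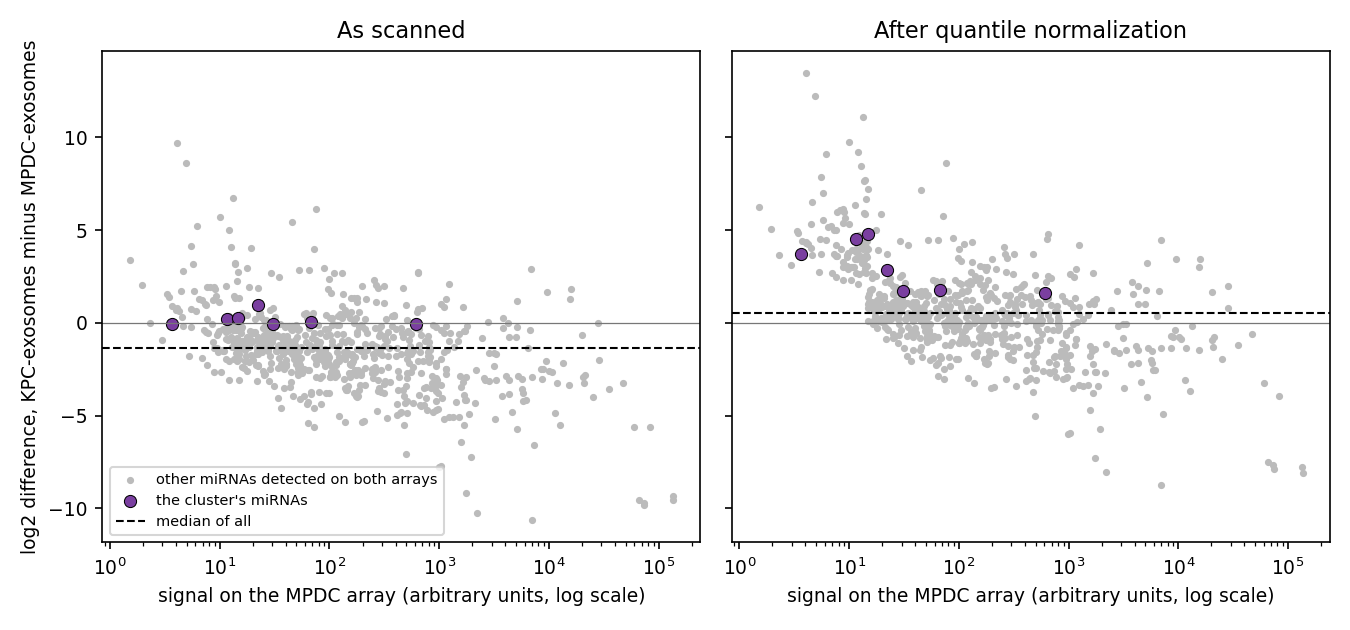
Log2 difference (KPC-exosomes minus MPDC-exosomes) against the signal on the MPDC array (arbitrary units, log scale) of the 726 miRNAs detected on both arrays (grey) and the 7 of the cluster among them (purple), as scanned on the left and after quantile normalization on the right, with the median of all as a dashed line. On the right the points with an MPDC signal up to 14.8 lie as a group above the rest, and 3 miRNAs of the cluster are among them.

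The arms of these hairpins that are not members did not all share the members' values. mmu-miR-351-3p read 21.2 ± 1.998 (KPC-exosomes) and 48.0 ± 3.93 (MPDC-exosomes), a log2 difference of -1.18 ± 0.18 as scanned and 0.61 after normalization. Its 2 probes differed by unequal amounts, -1.77 ± 0.25 for the probe of 12 bases and -0.37 ± 0.26 for the probe of 13 bases. The other arm, miR-351-5p, was detected in KPC-exosomes only. mmu-miR-450a-2-3p read 4.53 ± 0.69 (KPC-exosomes) and 22.4 ± 1.73 (MPDC-exosomes), -2.31 ± 0.25 as scanned and -0.36 after normalization, and its spots did not overlap between the arrays on either detected probe. The difference of miR-450a-5p, which can also come from Mir450-1, exceeded that of miR-450a-2-3p by 2.52 ± 0.37 as scanned and by 4.88 after normalization. The arms of Mir450b differed by less than their error, -0.29 ± 0.42 as scanned.

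Other miRNAs with a member's seed could be compared for 4 members, since 6 had no such partner among the 1608 array miRNAs with a RefSeq mature sequence. For miR-322-5p these are the miR-15/16 family. The sequences of 3 of them show the shared seed in capitals beside their own 3′ parts.
mmu-miR-16-5p: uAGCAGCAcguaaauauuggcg
mmu-miR-195a-5p: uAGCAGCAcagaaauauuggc
mmu-miR-497a-5p: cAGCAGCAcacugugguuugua
Of 9 partners, 5 were detected on both arrays and all 5 had less signal in KPC-exosomes, where miR-322-5p had the same signal on both. miR-16-5p read 1058 ± 85.1 (KPC-exosomes) and 8572 ± 686 (MPDC-exosomes), a log2 difference of -3.02 ± 0.16 as scanned. That of miR-195a-5p was 61.6 ± 5.30 and 1870 ± 151, a difference of -4.92 ± 0.17. That of miR-497a-5p was 35.8 ± 3.18 and 943 ± 77.7, a difference of -4.72 ± 0.17. The differences of miR-15a-5p and miR-15b-5p were -3.04 ± 0.14 and -2.94 ± 0.16. After normalization miR-15a-5p, miR-16-5p, miR-195a-5p and miR-497a-5p were still at least 2-fold lower (-1.51, -1.35, -3.43 and -2.99), and miR-15b-5p, at -0.95, was not past 2-fold. miR-195b, miR-6342, miR-6353 and miR-6419 were detected on neither array.

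The seed of miR-351-5p is that of the miR-125 family, and the sequences below show it in the best known members.
mmu-miR-125a-5p: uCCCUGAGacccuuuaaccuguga
mmu-miR-125b-5p: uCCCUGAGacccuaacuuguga
miR-125a-5p read 668 ± 58.6 (KPC-exosomes) and 314 ± 27.1 (MPDC-exosomes), a log2 difference of 1.09 ± 0.18 as scanned. The difference of miR-125b-5p, which the study also picked from these arrays for further work, was 2.75 ± 0.18. That of miR-6394 was -2.71 ± 0.16. miR-6367 was detected in KPC-exosomes only, at least 8.39-fold higher as scanned. So 3 of the 4 partners lay on the side of miR-351-5p and miR-6394 on the other. After normalization the log2 differences were 2.62 for miR-125a-5p, 4.77 for miR-125b-5p and -0.996 for miR-6394.

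miR-542-5p had 1 partner, mmu-miR-6966-5p (cUCGGGGAuguggacagcaca), which read 31.5 ± 2.70 (KPC-exosomes) and 8.20 ± 1.53 (MPDC-exosomes), a log2 difference of 1.94 ± 0.30 as scanned. miR-450b-3p had miR-6352, at 9.73 ± 1.49 and 19.8 ± 1.99, a difference of -1.02 ± 0.26 as scanned, and the undetected miR-450a-1-3p. After normalization the log2 differences were 6.06 for miR-6966-5p and 0.86 for miR-6352. Thus miR-542-5p and its partner were both higher in KPC-exosomes as scanned, while miR-450b-3p and its partner lay on opposite sides of 0 as scanned, with miR-450b-3p itself within 2 scanner errors, and both above 0 after normalization.

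**Figure D5:**
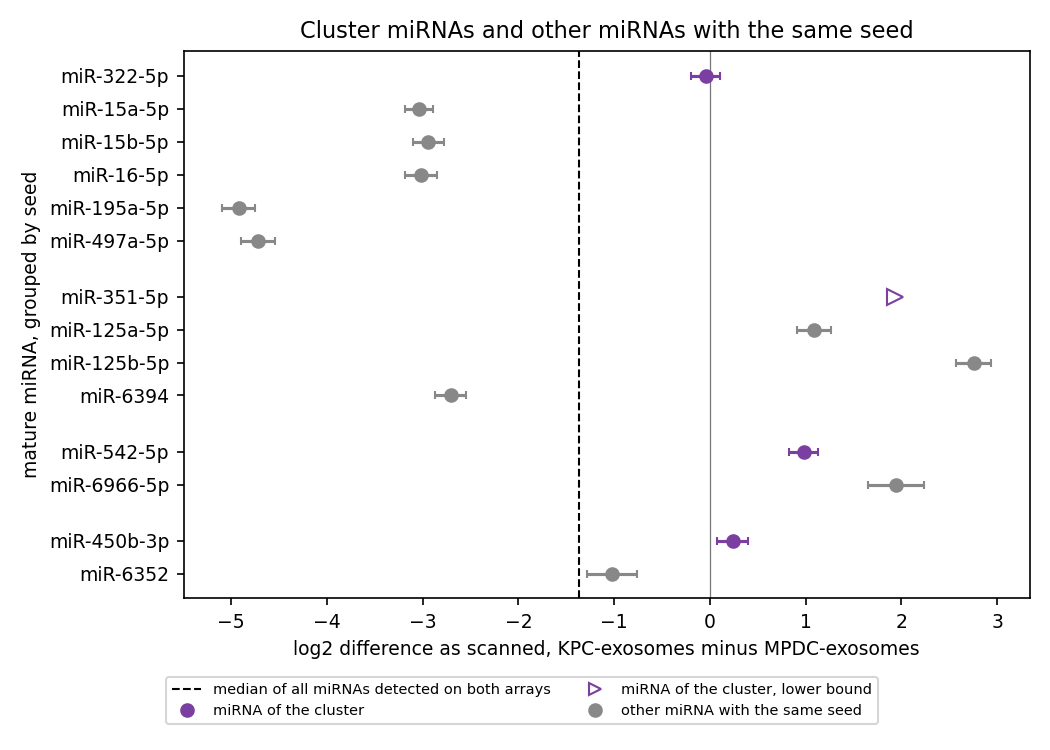
Log2 difference as scanned (KPC-exosomes minus MPDC-exosomes, ± 1 scanner error) of 4 miRNAs of the cluster (purple) and of the other miRNAs with the same seed that both arrays detected (grey), with the bound of miR-351-5p as an open triangle and the median of the 726 miRNAs measured on both arrays (-1.37) as a dashed line. miR-322-5p lies at -0.05 and its 5 partners between -4.92 and -2.94.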

How the data were processed

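Exosomal RNA of KPC and MPDC cells was measured on Agilent Mouse miRNA V21.0 arrays, 1 per group, with Cy3 in 1 colour. Per the labels the RNA was labelled as amplified cRNA. The labels name Agilent Feature Extraction 9.1 and the file headers give 10.7.1.1. The scanner files deposited by the authors hold intensity values per spot and per probe (total probe signal and its error, background-subtracted by the software). The authors' series table holds log2 values normalized in GeneSpring, with no method named. Its medians were -2.61 (KPC) and -0.42 (MPDC).

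From the scanner files, control spots were left out of all counts of miRNAs, total probe signals above 3 errors were summed per miRNA, undetected miRNAs were set to 0.1, and log2 values of 1881 miRNAs and 21 control features were quantile normalized with ties averaged. This matched all 1902 deposited log2 values to within 1.11e-05, so their scale, centring and direction are known. A miRNA was called when detected on at least 1 array and at least 2-fold different. Errors of differences combine the scanner errors of both arrays. Quantile normalization and the 2-fold call were tested on simulated data. The simulation held no undetected miRNAs, so it did not cover the floor, the detection rule or the bounds. No spot of a miRNA was saturated. Python 3.11.15, numpy 2.4.6, pandas 2.3.3 and, for normexp (offset 50), limma 3.58.1 in R 4.3.3 were used. The members, the other arms of the hairpins, seed partners, the miRNA with the longest shared probe run and the marker lists were the miRNAs to be named, and members and lists were chosen with earlier results of these data known. Alternatives covered scaling, background correction, probe choice, floor and threshold. Group means and tests were not possible with 1 array per group. Part of the KPC genotype is not reported here.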

Additional observations from a re-analysis of the deposited data

Results flagged for a closer look

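The scanner files also carry a total signal per miRNA that the comparisons did not use, and for some members it was above the sum of their own detected probes. On the KPC array it was 191.8 for miR-322-3p (sum of probes 2.95), 26.9 for miR-351-5p (5.76), 73.9 for miR-542-5p (43.97), 34.3 for miR-450b-5p (3.53) and 30.8 for miR-450b-3p (17.4). On the MPDC array it was 53.2 for miR-542-5p (22.3), 29.95 for miR-450b-5p (3.65) and 26.3 for miR-450b-3p (14.7). For miR-542-5p the written total equalled the sum of the probes of miR-542-3p and miR-542-5p on both arrays (73.9 and 53.2). For the members not listed above for an array, the written total matched the sum of their own probes within a relative tolerance of 0.001. Over all miRNAs it differed for 143 on the KPC array and 182 on the MPDC array.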

How the results depend on the processing

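No member was at least 2-fold lower under any of the 17 alternatives. The count of members at least 2-fold higher (9) was 2 without normalization and under spike-in scaling and 3 after normexp. It was at least 7 under the other alternatives that kept the 2-fold threshold, and 6 at a 4-fold threshold. The alternative with bounds in place of the floor used bounds after normalization, which that floor also affects. The median log2 difference of the 7 members detected on both arrays (2.82), and its excess over all miRNAs detected on both (2.29), moved by more than the scanner error under each of the 13 alternatives to the signal values except the deposited values, and the other 4 alternatives change only which miRNAs are called. The median and the excess were 0.035 and 1.41 without normalization, 0.0099 and 1.41 under spike-in scaling, 1.66 and 1.41 scaled on the median of miRNAs found on both, 1.58 and 1.41 with their 75th percentile, 1.86 and 1.41 with the 75th percentile of all, 1.47 and 1.47 with quantiles over those detected on both, 0.79 and 0.61 with normexp, 1.51 and 1.40 with the processed signal, 2.56 and 2.02 with the brightest probe, 2.01 and 1.56 with all probes, 2.25 and 1.75 with probes above 2 errors, and 2.02 and 1.496 with a floor of 1. Over all miRNAs, 42.4% of those called were higher, 14.1% without normalization, 13.9% with spike-ins, 65.4% among those detected on both arrays and 56.1% with bounds in place of the floor. The log2 differences of miR-322-5p, miR-542-3p and miR-450b-5p turned to -0.045, -0.045 and -0.049 without normalization and to -0.070, -0.070 and -0.074 under spike-in scaling. Placed on the normalization curve alone, the 15 probes detected on both arrays gave 1.52 to 4.91. The slide as a block was not run, since both arrays lay on 1 slide. No paired analysis was possible because each group had 1 array. Signals of miR-450b-5p, miR-351-5p and miR-322-3p were under 6, near the lowest detected signals (1.41 and 1.51), so their differences are the least certain.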
